A study of Arabidopsis thaliana with 11 samples.

Results

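The genes of the chloroplast genome that the ATH1 array measures with a probe set of their own were followed through inflorescences of Arabidopsis thaliana labelled wild type and of 2 genotypes directed against the NGATHA genes. Members were probe sets annotated to exactly 1 gene of the plastid genome with a log2 value of 4 or more on 4 or more of the 11 arrays. Of the 69 plastid genes with such a probe set, 66 passed. They encode 5 subunits of photosystem I, 15 of photosystem II, 6 of the cytochrome b6f complex, 5 of the ATP synthase, 9 of the NDH complex, 1 of Rubisco, 15 of the plastid ribosome and 3 of the plastid RNA polymerase. The other 7 are matK, ycf3, ycf4, accD, cemA, clpP and ccsA. The 66 probe sets lie among 17910 that passed the same filter on the whole array. The genes ndhF, atpI and rpoB stayed out, with 0, 1 and 2 arrays at 4 or more and highest values of 3.41, 4.08 and 4.35. Just inside lay rps14, with 5 such arrays and values from 3.62 to 4.41, and petD, with 7 arrays and values from 3.80 to 4.47. A further 8 probe sets match several plastid genes, mostly the copies of the inverted repeat, and were not counted as members.

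The plastid genome keeps a small share of the genes its own machinery needs, and the nucleus supplies the rest. Most complexes of the thylakoid membrane and the plastid ribosome are therefore built from subunits of both origins. Plastid genes are read as polycistronic units by a bacterial-type polymerase, whose core the plastid encodes, and by nuclear-encoded phage-type polymerases. The transcripts are then cut, edited and stabilised by nuclear-encoded RNA-binding proteins. In photosynthesis, photosystem II and photosystem I drive electron transport, the cytochrome b6f complex links them, the ATP synthase uses the resulting proton gradient, and the NDH complex carries electrons around photosystem I. In an inflorescence, green sepals, carpels and stems hold chloroplasts, while petals and pollen hold few or none.

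All plants were of the Ler ecotype where the labels give one. The tissue was inflorescence with flowers of stage 12 and younger, taken 30 days after sowing. The 7 control arrays are labelled wild type, and 3 of them, replicates 2 to 4, carry a note of long days. The 2 arrays of the nga quadruple mutant carry the mutant alleles nga1-1 and nga2-1 together with nga3-1 and nga4-1, 1 allele for each of the 4 NGATHA genes. These genes encode B3-domain transcription factors of style and stigma development. The 2 arrays of amiR-NGA are from plants that express an artificial microRNA against the 4 genes from the viral 35S promoter (35S:miR-NGA in the labels, 35S:amiR-NGA164a in the design text). The study's design text groups both genotypes, and together they are called nga-deficient here, a name for the genotypes as labelled. Whether replicates came from separate plantings is not stated, so the p-values speak to the spread among these arrays alone, and that spread may be technical.

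For NGA3 and NGA4 every nga-deficient array measured under every control array. NGA2 lay under every control on the quadruple mutant, at 4.68 and 4.77 against 5.19 to 5.52, but not on amiR-NGA, at 5.34 and 5.47. NGA1 went against the labels. It stood at 10.50 or more (log2) on control replicates 5 to 7 but at 5.60 to 5.99 on control replicates 1 to 4, below both quadruple mutant arrays at 6.95 and 6.50. "Control" below therefore means an array labelled wild type. On 3 arrays, control replicates 1 and 2 and quadruple mutant replicate 1, the actin control probe sets differed more between the 3-prime and 5-prime ends than elsewhere, by 2.05 to 2.11 against 1.09 to 1.31 (log2). The GAPDH control probe sets set the same 3 arrays apart, by 1.05 to 1.29 against 0.08 to 0.48. These are called the arrays of high actin difference below. No floral organ identity gene of the marker list (0 of 8) was matched to a probe set of 1 gene in the annotation used here. The tissue was therefore not checked with them. A missing match need not mean that the array lacks a probe set for the gene. Of the tapetum and anther markers 2 of 8 matched, and A9, a tapetum gene, stood at 12.11 ± 0.28 (SD, n = 7) on the controls and 12.00 ± 0.28 (n = 4) on the nga-deficient arrays. Of the shoot meristem markers 1 of 4 matched and did not pass the filter, and of the epidermis markers 0 of 3 matched. All values below are log2 values. Levels of different genes are not compared, since each probe set has its own response.

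**Figure D1:**
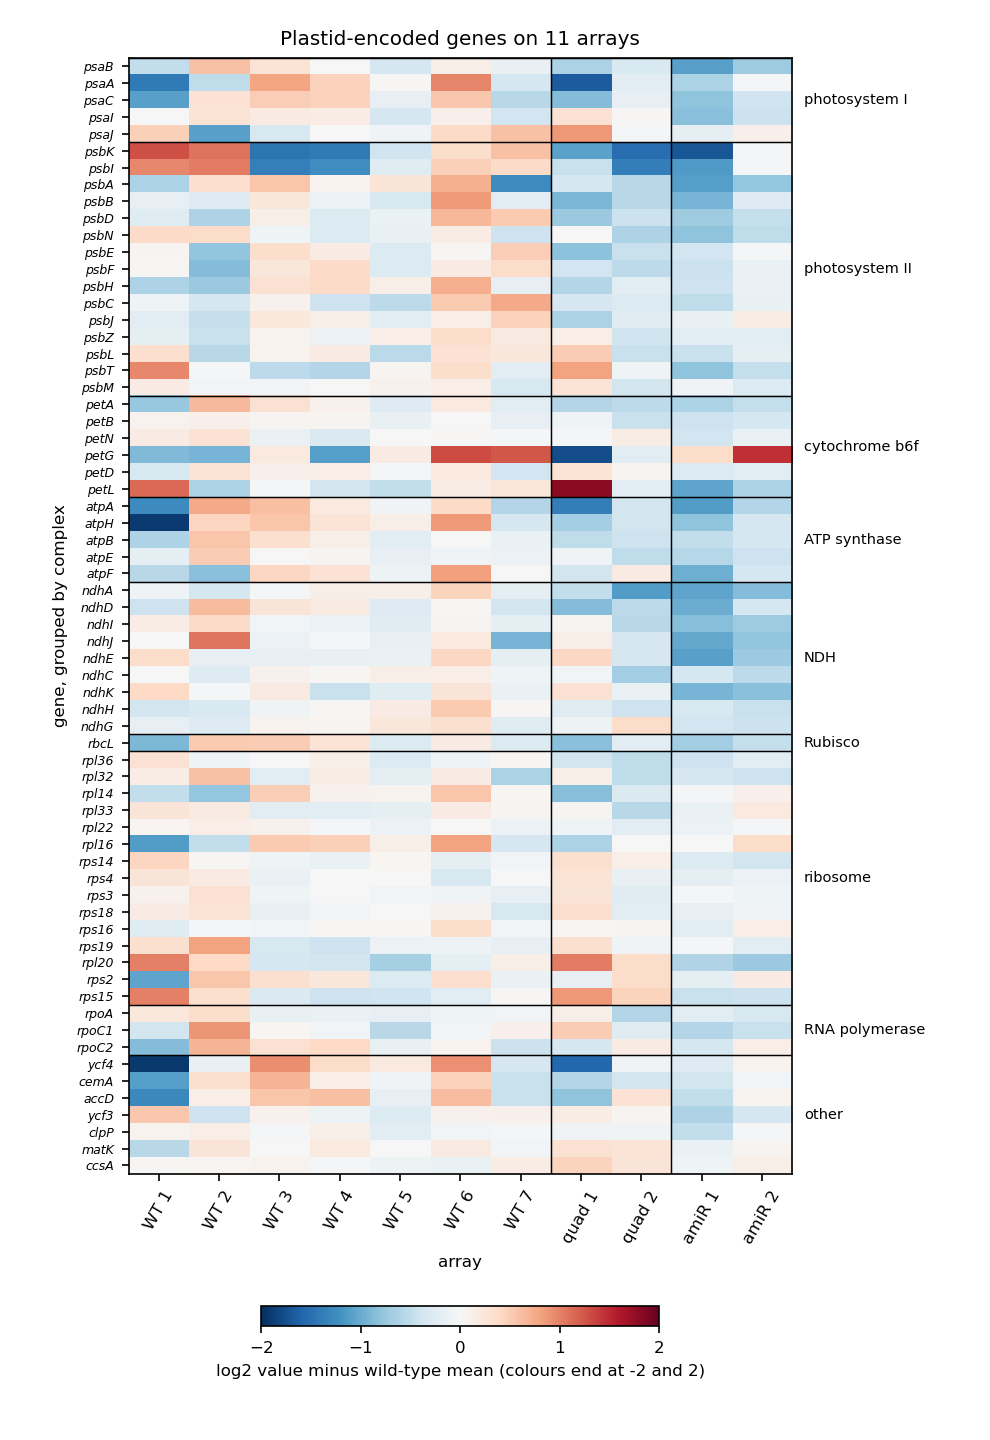
Each row is 1 of the 66 plastid-encoded genes and each column 1 array (WT, labelled wild type; quad, nga quadruple mutant; amiR, amiR-NGA). Colour gives the log2 value minus the mean of the 7 control arrays, with colours ending at -2 and 2, and rows within a complex are ordered by their nga-deficient fold change. The amiR-NGA columns are blue for most genes, while WT 1 and quad 1 share strongly blue rows such as psaA and ycf4.

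The first comparison set the 4 arrays of both genotypes against the controls. Taken over both genotypes, 60 of the 66 genes had a lower mean on the 4 nga-deficient arrays than on the 7 controls, which is 90.9% of members against 52.9% of all 17910 probe sets. The count of estimates under 0 depended on the setting. It was 47 with the replicate number as a block and 52 without amiR-NGA replicate 1. Against the controls without the long-days note alone it was 55, and with array weights 62. The differences were small, with a median log2 fold change of -0.27 against -0.02 over all probe sets and a range from -1.08 for psbK to 0.20 for psaJ. Only ndhA passed the test as lower (limma, Benjamini-Hochberg adjusted p over all probe sets under 0.05), and no member passed as higher. That is 1.52% of members, where 4.42% of all probe sets passed in either direction and 3.09% passed as lower. At an unadjusted p under 0.05 stood 16 members, all lower, or 24.2% against 22.4% of all probe sets. The lean towards lower values thus lay in the direction of the estimates. With all 11 arrays weighted equally, the share of plastid genes called was below that of all probe sets, but it rests on 1 gene. The order of these shares therefore says little about the members. This order held with a filter at 6 (1.85% against 6.82%) and with each array centred on its median (1.52% against 4.25%). It also held with the replicate number as a block (4.55% against 10.8%). In some other settings it turned. With array weights 27 members were called, 40.9% against 16.6% of all probe sets. The largest weight, 3.85, fell to amiR-NGA replicate 1, while control replicates 1 and 2 had 0.237 and 0.257. Against the controls with the long-days note alone 6 were called, 9.09% against 1.28%. Leaving out control replicate 1 raised the count to 5, 7.58% against 4.2%, and leaving out quadruple mutant replicate 1 raised it to 3, 4.55% against 1.88%. The mean over the 66 members was 8.48 to 8.91 on the controls and 8.46 and 8.38 on the quadruple mutant and 8.12 and 8.40 on amiR-NGA. All 4 nga-deficient arrays were therefore below the lowest control, by a margin as small as the distance from 8.46 to 8.48. In whole inflorescence tissue, fewer plastids or fewer green cells and less RNA per cell cannot be told apart.

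The medians differed between the complexes. The median log2 fold change was -0.56 over the 5 photosystem I genes, -0.44 over the 5 ATP synthase genes, -0.43 over the 9 NDH genes and -0.37 over the 15 photosystem II genes. It was -0.19 over the 3 RNA polymerase genes, -0.07 over the 6 cytochrome b6f genes and -0.04 over the 15 ribosomal protein genes. The rbcL gene, alone for Rubisco, stood at -0.56. All members of photosystem II, cytochrome b6f, ATP synthase, NDH and RNA polymerase had estimates under 0, as had 4 of 5 photosystem I genes and 12 of 15 ribosomal protein genes. The cytochrome b6f median rests in part on dim genes, with petD at 3.80 to 4.47 and petG at 3.08 to 6.31. It lay further under 0 with a filter at 6 and with array weights. With the replicate number as a block it lay below the photosystem I median. These medians are descriptions, and differences between complexes were not tested.

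**Figure D2:**
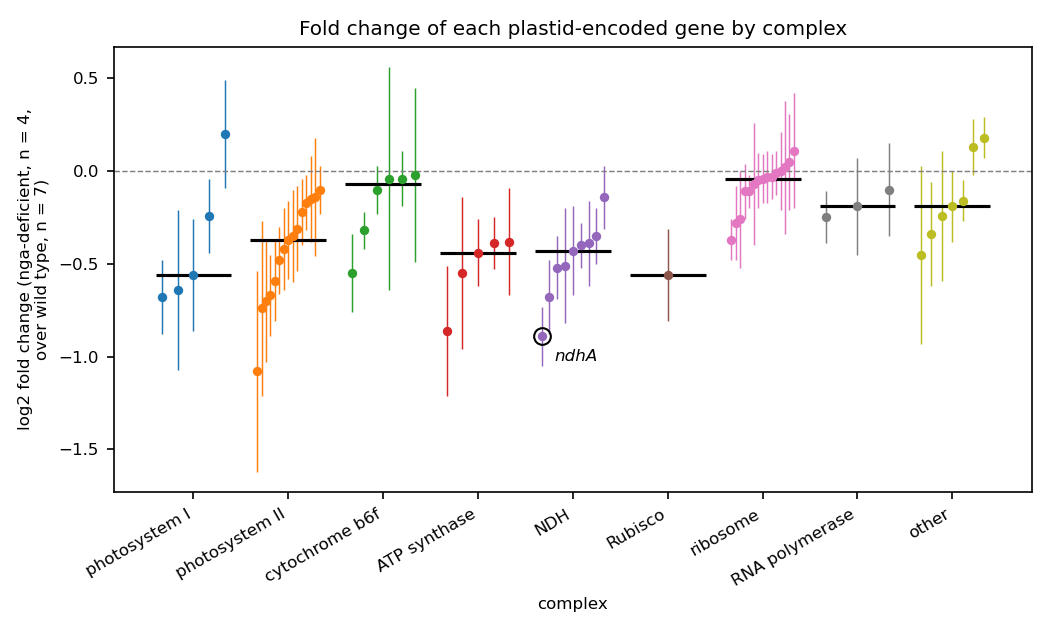
Points are the log2 fold changes of single genes, nga-deficient (n = 4) over arrays labelled wild type (n = 7), with bars of 1 standard error and a black line at the median of each complex. The circled ndhA, at -0.89, is the gene past the adjusted threshold, and the ribosomal protein genes centre on -0.04.

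The NDH complex is a relative of the respiratory complex I, and its plastid genes held the one member that passed. The ndhA gene encodes a membrane subunit. Its lowest, median and highest control values were 9.11, 9.44 and 9.90. It measured 8.96 and 8.35 on quadruple mutant replicates 1 and 2 and 8.41 and 8.59 on amiR-NGA replicates 1 and 2. All 4 nga-deficient arrays lay under every control, and ndhA was the only member without overlap, where 4.32% of all probe sets were separated this way. No member lay above every control on all 4 arrays, where 3.06% of all probe sets did. The log2 difference was -0.89 (SE 0.16, limma adjusted p = 0.00937), a level 1.85-fold lower. The call was lost against the 3 controls with the long-days note alone, at -0.80 (adjusted p = 0.0864), and against the 4 controls without it alone, at -0.96 (adjusted p = 0.051). It was also lost with the replicate number as a block, at -0.67 (adjusted p = 0.0739).

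The other NDH genes pointed the same way without passing. The ndhI gene, for an iron-sulphur subunit of the arm that meets the membrane, ran from 12.07 over 12.26 to 12.70 on the controls (lowest, median, highest). On the quadruple mutant it measured 12.37 and 11.75 and on amiR-NGA 11.46 and 11.60. Only quadruple mutant replicate 1 fell within the controls, and the log2 difference was -0.52 (SE 0.17, adjusted p = 0.101). The ndhD gene, for a membrane subunit, had a log2 difference of -0.68 (SE 0.20, adjusted p = 0.0761). The ndhC gene, for another membrane subunit, had one of -0.40 (SE 0.12, adjusted p = 0.084). The estimates for ndhJ, ndhE, ndhK, ndhH and ndhG ran from -0.51 to -0.14. The mean over the 9 genes was 7.56 to 8.07 on the controls. It was 7.72 and 7.40 on the quadruple mutant and 7.04 and 7.18 on amiR-NGA, so 3 of 4 nga-deficient arrays lay below the lowest control.

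**Figure D3:**
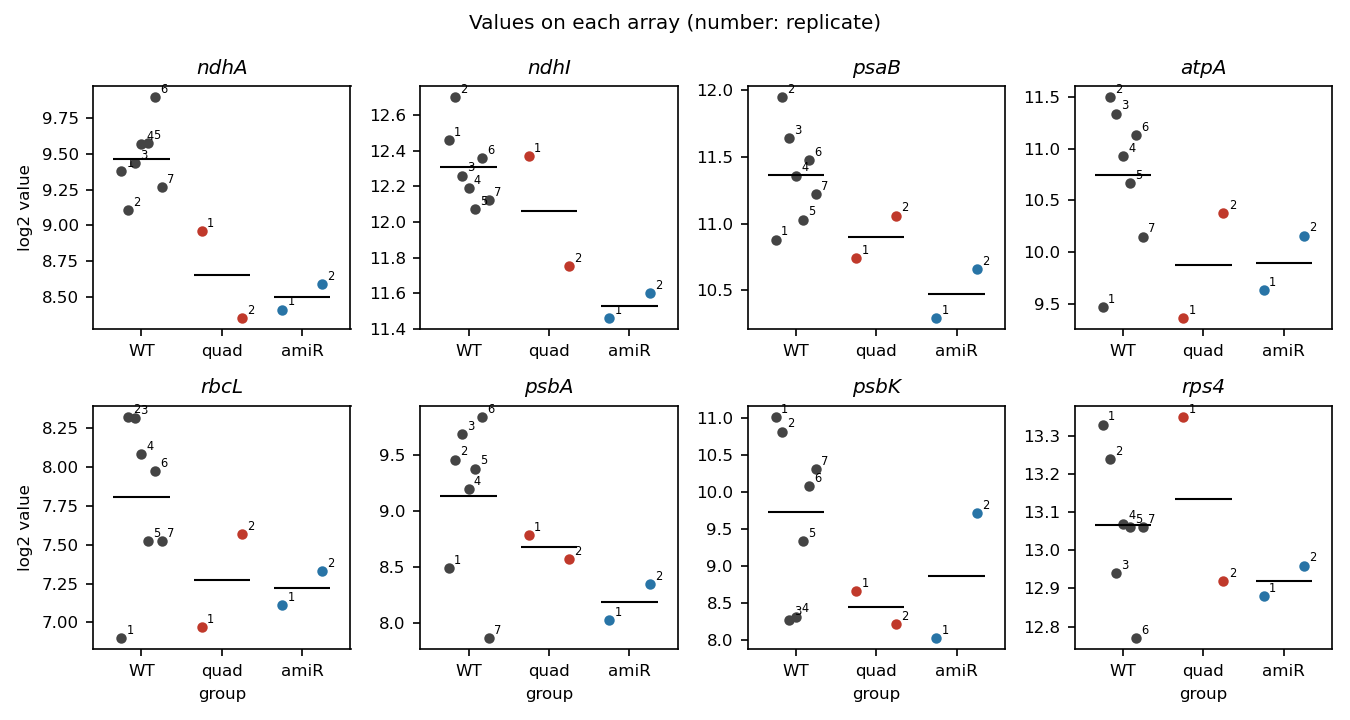
Log2 values of 8 plastid genes on each array, with the replicate number beside each point and a line at each group mean (WT, labelled wild type, n = 7; quad, n = 2; amiR, n = 2). For ndhA the 4 nga-deficient arrays sit between 8.35 and 8.96, under all controls, while for rbcL, psbA and atpA the low control arrays reach into their range.

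Photosystem II splits water, and psbA encodes its D1 protein, the subunit that is replaced most often. Control values of psbA had a lowest, median and highest of 7.87, 9.38 and 9.84. The quadruple mutant measured 8.79 and 8.57 and amiR-NGA 8.03 and 8.35. Control replicate 1 lay among the nga-deficient arrays and control replicate 7 under all of them, and the log2 difference of -0.70 (SE 0.33) had an adjusted p of 0.229. The largest estimate of the complex was that of psbK, for a small subunit, at -1.08 (SE 0.54, adjusted p = 0.259). Its control values spread from 8.27 to 11.02, with a median of 10.08. The quadruple mutant at 8.66 and 8.21 and amiR-NGA at 8.02 and 9.71 lay within or just under that spread. For psbM, another small subunit, the controls ran from 12.56 over 12.88 to 13.05. The quadruple mutant measured 13.16 and 12.52 and amiR-NGA 12.81 and 12.61, on both sides of the controls, with a log2 difference of -0.10 (SE 0.13). The psbB gene for the CP47 antenna protein and the psbD gene for the D2 protein stood at -0.67 (SE 0.22, adjusted p = 0.0956) and -0.59 (SE 0.22, adjusted p = 0.133). The remaining genes of the complex, psbC, psbE, psbF, psbH, psbI, psbJ, psbL, psbN, psbT and psbZ, ranged from -0.74 to -0.14. The mean over the 15 genes was 8.67 to 9.28 on the controls and 8.23 to 8.65 on the 4 nga-deficient arrays, with no overlap, although no single gene was separated.

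In the cytochrome b6f complex, petA encodes cytochrome f. Its controls ran from 9.64 over 10.48 to 11.05, the quadruple mutant measured 9.81 and 9.87 and amiR-NGA 9.77 and 9.93. Only control replicate 1 was as low as the nga-deficient arrays, and the log2 difference was -0.55 (SE 0.21, adjusted p = 0.147). The petB gene for cytochrome b6 was one of the steadiest members on the controls, at 12.76, 12.97 and 13.02 (lowest, median, highest). It measured 12.84 and 12.47 on the quadruple mutant and 12.50 and 12.57 on amiR-NGA, with a log2 difference of -0.32 (SE 0.10, adjusted p = 0.0883). For petD, petN, petG and petL the estimates lay between -0.10 and -0.02.

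Photosystem I is built around the products of psaA and psaB. The psaB gene had control values of 10.88, 11.36 and 11.95 (lowest, median, highest), quadruple mutant values of 10.74 and 11.06 and amiR-NGA values of 10.29 and 10.66. Of the nga-deficient arrays 3 lay under every control, and the log2 difference was -0.68 (SE 0.20, adjusted p = 0.0709). The estimate for psaA was close to it, at -0.64, with an SE of 0.43. The psaC gene for the iron-sulphur subunit stood at -0.56 (SE 0.30), psaI at -0.24 (SE 0.20) and psaJ at 0.20 (SE 0.29).

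Among the ATP synthase genes, atpA encodes the alpha subunit of the catalytic head. Its control values were 9.47, 10.93 and 11.50 (lowest, median, highest). The quadruple mutant measured 9.36 and 10.38 and amiR-NGA 9.63 and 10.16. Control replicates 1 and 7 lay among these, and the log2 difference was -0.86 (SE 0.35, adjusted p = 0.172). The atpE gene for the epsilon subunit ran from 12.48 over 12.61 to 13.18 on the controls, with 12.61 and 12.17 on the quadruple mutant and 12.11 and 12.26 on amiR-NGA. Its log2 difference was -0.39 (SE 0.14, adjusted p = 0.129). The beta subunit gene atpB, the membrane ring gene atpH and the stalk gene atpF had estimates of -0.44, -0.55 and -0.38. The rbcL gene, for the large subunit of Rubisco, had control values of 6.90, 7.97 and 8.32. It measured 6.97 and 7.57 on the quadruple mutant and 7.11 and 7.33 on amiR-NGA. Control replicate 1 was the lowest of all 11 arrays, replicates 5 and 7 also lay under the highest nga-deficient value, and the log2 difference was -0.56 (SE 0.25, adjusted p = 0.206).

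The plastid also encodes part of its own machinery of translation and transcription. The rps4 gene, for a protein of the small ribosomal subunit, had control values of 12.77, 13.06 and 13.33. The quadruple mutant measured 13.35 and 12.92 and amiR-NGA 12.88 and 12.96, with a log2 difference of -0.04 (SE 0.13). The largest estimate among ribosomal protein genes was that of rpl36, for a protein of the large subunit. It ran from 9.99 over 10.26 to 10.57 on the controls, with 9.90 and 9.76 on the quadruple mutant and 9.85 and 10.05 on amiR-NGA, a log2 difference of -0.37 (SE 0.11, adjusted p = 0.0807). The other 13, rpl14, rpl16, rpl20, rpl22, rpl32, rpl33, rps2, rps3, rps14, rps15, rps16, rps18 and rps19, ranged from -0.28 to 0.11. The rpoA gene for the alpha subunit of the plastid RNA polymerase had control values of 10.94, 11.03 and 11.46. The quadruple mutant measured 11.22 and 10.53 and amiR-NGA 10.89 and 10.79, with a log2 difference of -0.25 (SE 0.14, adjusted p = 0.322). The rpoC1 and rpoC2 genes for other core subunits stood at -0.19 and -0.10.

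Of the remaining 7, clpP encodes the catalytic subunit of the stromal Clp protease. Its controls averaged 11.21 ± 0.12 (SD, n = 7), with a median of 11.18 and a highest value of 11.34, against 11.14 on both quadruple mutant arrays and 10.71 and 11.17 on amiR-NGA, a log2 difference of -0.16 (SE 0.11). The ycf4 gene, for an assembly factor of photosystem I, spread from 5.68 over 7.80 to 8.54 on the controls. It measured 6.04 and 7.54 on the quadruple mutant and 7.35 and 7.68 on amiR-NGA, with a log2 difference of -0.45 (SE 0.48, adjusted p = 0.622). Estimates were 0.13 for matK, the maturase of group II introns, and 0.18 for ccsA, which takes part in attaching haem to cytochrome c. The genes accD, for a subunit of acetyl-CoA carboxylase, cemA, for an inner envelope protein, and ycf3, for another photosystem I assembly factor, lay between -0.34 and -0.19.

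The genotypes were then compared with the controls separately. Both comparisons share the 7 controls, so their values are given side by side. In the quadruple mutant 44 of 66 estimates lay under 0 with a median of -0.25, and in amiR-NGA 61 of 66 with a median of -0.35. Over all probe sets the medians were -0.04 and 0.01. In the quadruple mutant ndhA passed as lower at -0.81 (SE 0.20, adjusted p = 0.0465), 1.52% of members against 4.17% of all probe sets called in either direction and 2.23% called lower. That call was lost when any array other than control replicate 2 was left out. The adjusted p then lay between 0.0518 and 0.279. Leaving out control replicate 1 also brought a call of rps15 as higher. In amiR-NGA no member passed, where 0.932% of all probe sets did and 0.815% as lower, and ndhA came nearest at -0.96 (SE 0.20, adjusted p = 0.0524). At an unadjusted p under 0.05 stood 7 members in the quadruple mutant, 10.6% against 21.3% of all probe sets. In amiR-NGA 15 did, all lower, 22.7% against 12.6%. Leaving out 1 array moved the amiR-NGA count between 0 and 1, with ndhA called without control replicate 2 or without either quadruple mutant array.

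Both amiR-NGA arrays lay under every control for 14 members, 21.2% against 8.36% of all probe sets, and above every control for none, where 9.98% of all probe sets did. For the quadruple mutant 4 members lay under every control, 6.06% against 10.7% of all probe sets, and 2 lay above all controls, where 8.17% of all probe sets did. The 4 were ndhA, ndhD, rpl36 and psbB, and the 2 were matK and ccsA. The first of the amiR-NGA arrays was the lowest of all 11 arrays for 19 members, 28.8% against 6.70% of all probe sets.

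The NDH genes had a median of -0.78 in amiR-NGA and -0.25 in the quadruple mutant. In amiR-NGA 8 of the 9 were at an unadjusted p under 0.05, where 12.6% of all probe sets were. Both amiR-NGA arrays lay under all controls for 6 of the 9, where they did for 8.36% of all probe sets, and these were ndhA, ndhC, ndhE, ndhG, ndhI and ndhK. The ndhE gene measured 4.38 and 4.74 on amiR-NGA, against controls of 5.27 to 5.88, and 5.88 and 5.13 on the quadruple mutant. The ndhK gene measured 4.25 and 4.35 on amiR-NGA, against controls of 4.73 to 5.58, and 5.49 and 5.04 on the quadruple mutant. Both quadruple mutant arrays lay above both amiR-NGA arrays in each case. Of the 6 genes, ndhE, ndhK and ndhG were dim. Their lowest values over all arrays were 4.38, 4.25 and 4.46, near the filter value of 4, and their highest 5.88, 5.58 and 5.26. Photosystem I genes had medians of -0.46 in the quadruple mutant and -0.60 in amiR-NGA, photosystem II genes -0.45 and -0.33, ATP synthase genes -0.46 and -0.58, and ribosomal protein genes 0.03 and -0.12.

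The direct test of the quadruple mutant against amiR-NGA called no plastid gene, where it called 0.134% of all probe sets and 0.0335% as lower in the quadruple mutant. The count at an unadjusted p under 0.05 was 12 (18.2% against 7.21%), and the smallest adjusted p was 0.534. Both quadruple mutant arrays lay above both amiR-NGA arrays for 19 members, 28.8% against 18.0% of all probe sets, and under them for 5, 7.58% against 28.7%. The estimates nevertheless spread widely, from -1.91 for petG to 1.64 for petL, with a median of 0.10. These neighbouring genes encode small subunits of the cytochrome b6f complex. The petG gene measured 3.08 and 4.63 on the quadruple mutant and 5.21 and 6.31 on amiR-NGA, with controls from 3.75 to 6.15. The petL gene measured 8.70 and 6.68 on the quadruple mutant and 5.84 and 6.26 on amiR-NGA, with controls from 6.25 to 8.02. Quadruple mutant replicate 1 was the lowest of all arrays for petG and the highest for petL. For both genes the replicates of the quadruple mutant differed widely, with replicate 1 minus replicate 2 at -1.55 for petG and 2.02 for petL. The NDH median of this contrast was 0.53, and it was 0.22 without quadruple mutant replicate 1. It was also smaller with a filter at 6, which leaves out the dim NDH genes.

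Among the controls, plastid transcripts varied more than most. The median SD over 7 controls was 0.39 for members against 0.24 for all probe sets, and 36 members (54.5%, against 20.4% of all probe sets) spanned a log2 range of at least 1. Photosystem I and ATP synthase genes had median SDs of 0.58 and 0.57, NDH genes 0.27 and ribosomal protein genes 0.21. The replicates of the quadruple mutant differed by a median of 0.46 over members (0.23 over all probe sets) and those of amiR-NGA by 0.26 (0.13). At the steady end stood rpl22, with a control SD of 0.09, and at the variable end psbK with 1.13, petG with 1.01 and psbI with 0.99. The order of the controls was nearly alike for psbK and psbI, neighbouring genes that both encode small subunits of photosystem II. Control replicates 1 and 2 measured 11.02 and 10.82 for psbK and 10.43 and 10.49 for psbI. Control replicates 3 and 4 measured 8.27 and 8.31 for psbK and 8.10 and 8.22 for psbI. The nga-deficient arrays, from 8.02 to 9.71 for psbK, ran from just under the lowest control to below the control median of 10.08.

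The only difference between controls that the labels give is the note of long days. Between the 3 controls with the note and the 4 without it no plastid gene passed, and neither did any other probe set (0.0%). At an unadjusted p under 0.05 stood 11 members, 16.7% against 2.22% of all probe sets, of which 9 were higher with the note and 2 lower. The values of all 3 controls with the note lay above those of all 4 without it for 6 members, 9.09% against 2.55%, and under them for none, against 0.91%. These were rpoC2, atpB, rbcL, ndhD, psaI and atpE. For rbcL they measured 8.32, 8.31 and 8.08 against 6.90, 7.52, 7.97 and 7.52, a log2 difference of 0.76 (SE 0.23, adjusted p = 1.0). The ATP synthase median was 0.57 and the RNA polymerase median 0.51, while the photosystem II median was -0.16 and the NDH median -0.09. No nga-deficient array carries the note. Against the controls with the note alone the nga-deficient median of the photosystem I genes was -0.89, in place of -0.56.

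Of the 3 arrays of high actin difference, control replicate 1 and quadruple mutant replicate 1 differed from other arrays of their own groups in the same direction for most plastid genes. Control replicate 1 was set against the mean of control replicates 3 to 7, and quadruple mutant replicate 1 against replicate 2, which share no array. In 26 members both differences were under 0, in 28 both were above 0 and in 12 they were opposite. The signs were thus shared in 81.8% of members and in 59.5% of all probe sets. With control replicate 2 in place of replicate 1 they were shared in 62.1% of members, close to the 61.5% of all probe sets. For all 15 ribosomal protein genes the signs were shared, 11 above 0 and 4 under it. Both differences were under -1 for ycf4, at -2.34 and -1.50, psaA, at -1.80 and -1.44, accD, at -1.52 and -1.09, atpA, at -1.37 and -1.02, and petG, at -1.24 and -1.55. For atpH the difference of control replicate 1 was -2.20, but the quadruple mutant difference was -0.33. The highest included petL, at 1.23 and 2.02, psbI, at 1.36 and 0.93, and psbT, at 1.15 and 0.89. Whether the property that set the actin and GAPDH signals apart acts on plastid transcripts was not tested. Without the 3 arrays, 60 of 66 nga-deficient estimates were again under 0, with a median of -0.38, and 5 genes passed as lower, ndhA, ndhC, ndhI, petB and atpE, 7.58% of members where 4.84% of all probe sets passed in either direction and 3.41% as lower.

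**Figure D4:**
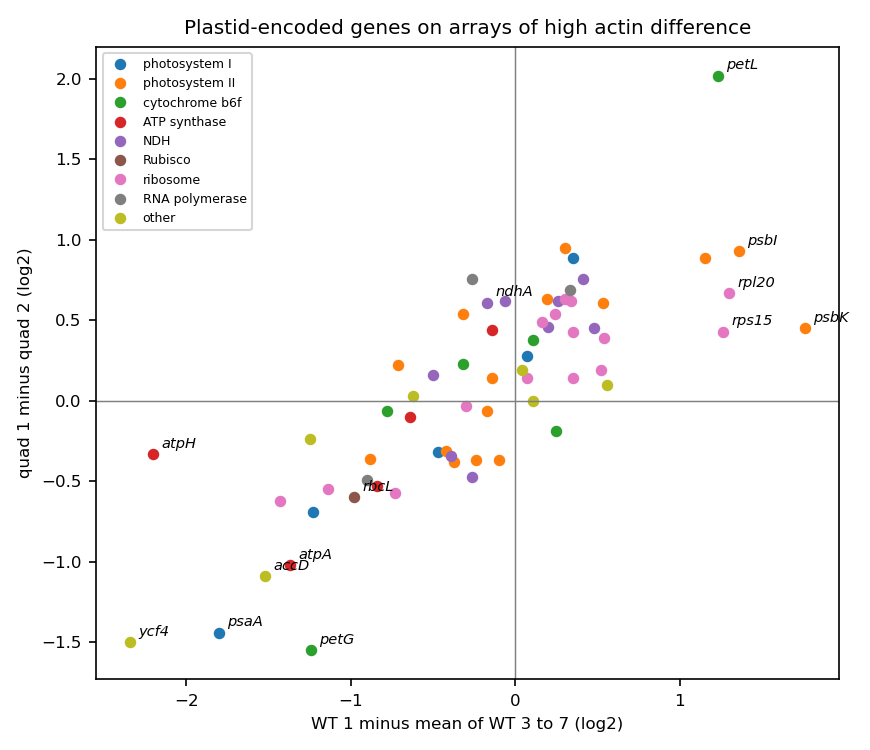
Each point is 1 of the 66 plastid genes, coloured by complex. The x axis gives control replicate 1 (WT 1) minus the mean of control replicates 3 to 7, and the y axis quadruple mutant replicate 1 minus replicate 2, both as log2 differences. In 54 of 66 genes both differences have the same sign, with ycf4, psaA and petG at the low corner and petL at the high one.

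Neighbouring genes that textbooks describe as transcribed together did not always share a fold change. The 13 runs looked at hold 51 members and were chosen after values had been seen. The nga-deficient estimates were close in 3 of the runs of 2 or 3 genes, with -0.68 and -0.64 for psaB and psaA, -0.39 and -0.44 for atpE and atpB, and -0.51, -0.39 and -0.40 for ndhJ, ndhK and ndhC. Other runs of that length spread more, over 0.34 on the log2 scale for psbK to psbI, 0.48 for atpA to atpH, 0.42 for psbD to psbZ and 0.24 for rps2 to rpoC1. The run of psaB and psaA left out the member rps14, which lies beside psaB. The mean of rps14 was 3.98 on the controls and 3.93 on the nga-deficient arrays, near the filter value of 4, so this unit shared its fold change only as cut. The 7 genes from rpoA to rps19 spread over 0.37. The run from ndhD to rps15 spread over 1.00 on the log2 scale. In genome order its estimates were -0.68 for ndhD, -0.56 for psaC, -0.43 for ndhE, -0.14 for ndhG, -0.52 for ndhI, -0.89 for ndhA, -0.35 for ndhH and 0.11 for rps15. In amiR-NGA all 8 were under 0, from -0.96 for ndhA to -0.38 for ndhH. In the quadruple mutant they ran from -0.81 for ndhA to 0.66 for rps15, with ndhE at 0.05 and ndhG at 0.13. The rps15 gene measured 7.52 and 7.10 on the quadruple mutant and 6.21 and 6.22 on amiR-NGA, with controls from 6.23 to 7.65. In the run from psbB to petD the estimates were -0.67 for psbB, -0.14 for psbT, -0.35 for psbH, -0.32 for petB and -0.04 for petD.

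**Figure D5:**
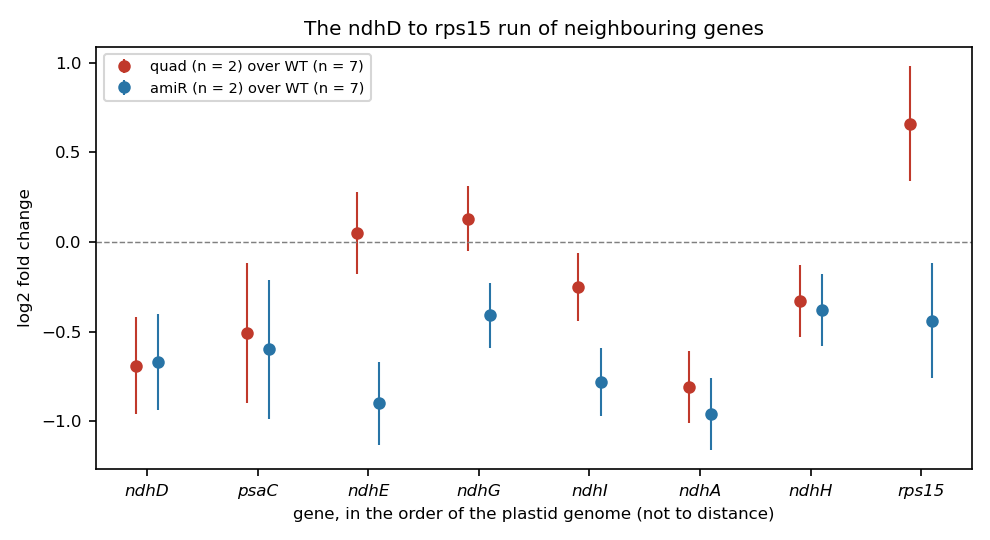
Log2 fold changes with bars of 1 standard error for the 8 neighbouring genes from ndhD to rps15, in genome order and not to distance, for the nga quadruple mutant (quad, red, n = 2) and amiR-NGA (amiR, blue, n = 2) over the 7 arrays labelled wild type (WT). The points of both genotypes lie close for ndhD, psaC, ndhA and ndhH and apart for ndhE, ndhG, ndhI and rps15.

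Nuclear genes of the same complexes were read from lists by locus. Most entries were not matched to a probe set of 1 gene in the annotation used here, which need not mean that the array lacks them. The lists were chosen with earlier results of these data known, so the falls below are descriptions and no separate evidence. Over all probe sets, 3.09% were called lower. All 3 of the 17 listed nuclear NDH genes that matched fell in the nga-deficient arrays. NDHN fell by 0.80 on the log2 scale (SE 0.18, adjusted p = 0.0307), from 8.29 ± 0.32 (SD, n = 7) to 7.50 ± 0.31 (n = 4). NDHL fell by 0.87 (SE 0.21, adjusted p = 0.0393) and NDHS, a stromal subunit, fell by 0.64 (SE 0.15, adjusted p = 0.0322). Of the light-harvesting antenna genes 3 of 18 matched and 2 fell, LHCB4.2 by 0.99 (SE 0.16, adjusted p = 0.00549) and LHCB4.3 by 0.74 (SE 0.15, adjusted p = 0.0186). These belong to the minor antenna CP29 family. The third, LHCB4.1, stood at -0.36 (SE 0.13, adjusted p = 0.115). ATPC1, the gamma subunit of the ATP synthase and 1 of 3 listed, fell by 0.48 (SE 0.13, adjusted p = 0.0499). RCA, Rubisco activase and the 1 of 5 listed Rubisco genes that matched, fell by 0.54 (SE 0.13, adjusted p = 0.0332). CRP1, an RNA-binding protein of plastid transcripts and 1 of 15 listed processing factors, fell by 0.61 (SE 0.14, adjusted p = 0.0329).

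No other kept list member passed in the nga-deficient comparison. The nuclear photosystem I list (2 of 12 matched) had a median of -0.30, the nuclear photosystem II list (2 of 11) one of -0.33, and PETM, 1 of 6 in the cytochrome b6f and carrier list, stood at -0.37. The nuclear ribosomal protein list of the plastid (7 of 30 matched) had a median of -0.04, the same value as the 15 plastid-encoded ribosomal protein genes. The phage-type polymerase RPOTmp, 1 of 20 in the plastid transcription list, stood at -0.11. Medians over so few members describe those members and not their complexes.

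Of the markers of green mesophyll, 1 of 11 matched, and this was RCA. It stood at 12.83 to 13.41 on the controls and 12.42 to 12.83 on the nga-deficient arrays, and these groups did not overlap, the nearest values differing by less than the rounding. Of the mature pollen markers 8 of 11 matched and passed the filter, and none passed the test in the nga-deficient comparison, where their median log2 fold change was 0.39. In the quadruple mutant AGL104, a MADS-box factor of pollen, rose by 1.57 on the log2 scale (SE 0.34, adjusted p = 0.0282), and it stood above every control. AGL66, at 1.38 (SE 0.36, adjusted p = 0.0539), and HTR10, a sperm cell histone, at 1.21 (SE 0.34, adjusted p = 0.0664), were also above every control there without passing. Of all probe sets, 8.17% lay above every control in the quadruple mutant. In amiR-NGA these 3 genes stood at 0.23, 0.29 and 0.19, and none passed. The other kept pollen markers had smaller estimates in the quadruple mutant. PLIM2b stood at 0.97, ACT12 at 0.46, AGL30 at 0.18, AGL65 at -0.04 and TUA1 at -0.09. The mean over the 8 markers was 5.07 to 5.77 on the controls, 6.52 and 5.77 on the quadruple mutant and 5.76 and 5.15 on amiR-NGA, so quadruple mutant replicate 1 was the highest array. Whether the make-up of cell types in the tissue had a part in the plastid values was not tested.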

How the data were processed

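Total RNA of each sample was hybridised to the Affymetrix ATH1 array, per the labels by the manufacturer's standard protocol. The authors deposited log2 values made with GC-RMA in R 2.7.2, per the submitters' processing notes; other settings were not given in the sources used here. Values ran from 2.61 to 14.37 with array medians of 6.08 to 6.27. GC-RMA draws dim probe sets towards a floor, which compresses their fold changes, and its normalization between arrays assumes similar overall distributions. Plastid transcripts mostly lack long poly(A) tails, and how the label was primed is not stated. Precision is limited by how many arrays there are.

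Of 22810 rows, 64 controls were left out and 17910 of the other 22746 kept (log2 value of at least 4 on at least 4 arrays). Plastid genes were those of the plastid sequence in a RefSeq gene table (assembly TAIR10.1), matched by gene number from the platform annotation. That table carries its own plastid locus tags. It was used to pick the plastid genes, for gene order and to match the loci of the gene lists. No gene had a second probe set of 1 gene. Members, gene lists and tests were chosen with earlier results of these data known. A list of mitochondrial genes matched 0 probe sets by gene number.

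Two-sided tests used lmFit and eBayes of limma 3.58.1 in R 4.3.3. The p-values of all 17910 probe sets were adjusted together (Benjamini-Hochberg), and an adjusted p under 0.05 counted as a call. The nga-deficient comparison used 2 groups, the genotype comparisons 3 groups in 1 fit, and the long-days comparison 4 groups in 1 fit. SE stands for the moderated standard error. The fit was tested on simulated data. Tables were made with Python 3.11.15 and pandas 2.3.3. Values by array are given for psbA, rbcL, every member past the threshold and, for each complex, its brightest member and the one with the largest nga-deficient fold change; other members given by array were chosen after their values were seen. Of the nuclear lists, members past the threshold are named, up to 4 a list. Alternatives were run for scaling, filter, weights of arrays, settings of eBayes, probe sets of several genes, the arrays of high actin difference, a replicate block, the long-days note, the groups in the fit and each array left out.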

Additional observations from a re-analysis of the deposited data

Results flagged for a closer look

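Within groups of 4 to 7 arrays, 148 sets of values (each member and each complex mean, on the controls and on the nga-deficient arrays) were checked for 1 array far from the others, of which chance alone marks about 1 in 20. The check marked 7, close to that rate. On control replicate 1, atpH stood at 5.58 where the nearest control was at 7.15, matK at 10.19 where the nearest was at 10.69, and rps14 at 4.41 where the nearest was at 4.02. On control replicate 2, atpE stood at 13.18 (nearest 12.73) and the mean of the 3 RNA polymerase genes at 9.96 (nearest 9.39). On quadruple mutant replicate 1, rps4 stood at 13.35 (nearest 12.96). These 6 values lie on the 3 arrays of high actin difference, and the part of that property in them was not tested. The seventh was clpP on amiR-NGA replicate 1, at 10.71 where the nearest nga-deficient array was at 11.14.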

How the results depend on the processing

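No called value of a member changed sign under any alternative, and ndhA was the only such member. Signs of other members did change. With the replicate number as a block they changed for 17 of 66 nga-deficient and 22 of 66 quadruple mutant estimates. Between the genotypes 22 of 66 changed without quadruple mutant replicate 1. These were the largest counts of these comparisons. Causes of the shifts given here were not tested. Of the 16 members given in full, each comparison and alternative gave 1664 tests beside the reported ones, of which 19 lost the call, 41 gained one and 1604 kept their side of the threshold. The nga-deficient call of ndhA held in 19 of 22 alternatives. Its quadruple mutant call held in 6 of 22, and in amiR-NGA it gained the call in 10 of 22.

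The count of plastid genes called in the nga-deficient comparison, 1 as reported, was 2 after quantile normalization (3.03% of members, 4.57% of all probe sets), 27 with array weights (40.9% and 16.6%), 5 once the 3 arrays of high actin difference were left out (7.58% and 4.84%), 6 against the controls with the long-days note alone (9.09% and 1.28%) and 0 against those without it alone (0.787% of all). Leaving out 1 array gave 1 to 5. In the quadruple mutant, 1 as reported, it was 0 with no filter, with each array centred on its median, against the controls with the note alone or without it alone, and with only the 2 groups compared, and leaving out 1 array gave 0 to 1. In amiR-NGA, 0 as reported, it was 1 with a filter at 6, with centring, with quantile normalization, with trend and robust settings of eBayes and with only the 2 groups compared. There it was 21 with array weights (31.8% of members, 9.21% of all probe sets) and 4 once the arrays of high actin difference were left out (6.06% and 2.35%), and leaving out 1 array gave 0 to 1. For the long-days note it was 4 with array weights (3.65% of all probe sets) and 0 otherwise.

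Replicate numbers were not taken to pair the samples, since the correlation of deviations between samples of equal number did not stay above 0.1 in every pair. For replicates 1 and 2 it was 0.174 and -0.274 between controls and quadruple mutant, and 0.0441 and -0.182 between controls and amiR-NGA. Between the quadruple mutant and amiR-NGA it was 0.285. That is a single value, since the deviations of 2 arrays from their own mean mirror each other. The replicate number was also used as a block, which rests the comparisons with controls on control replicates 1 and 2. The nga-deficient count was then 3 (psbK, psbI and ndhD), 4.55% of members against 10.8% of all probe sets. In amiR-NGA it was 2, 1 of them higher, 3.03% against 4.8%. It was 0 in the quadruple mutant, where 1.41% of all probe sets were called, and 0 between the genotypes, where 0.0112% were. The block gave nga-deficient medians of -0.16 for photosystem I, -0.29 for cytochrome b6f, -0.26 for ribosomal protein genes and 0.15 for the 7 other genes. It gave quadruple mutant medians of 0.02, -0.11 and -0.15 for photosystem I, photosystem II and ribosomal protein genes, and amiR-NGA medians of -0.21 for photosystem I and -0.34 for ribosomal protein genes.

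Among the medians of complexes, the nga-deficient cytochrome b6f value moved from -0.07 to -0.32 with a filter at 6, -0.30 with array weights, -0.26 without the arrays of high actin difference and -0.27 against the controls without the note. With 1 array left out it ran from -0.27 to -0.05. The nga-deficient NDH median was -0.67 with array weights and ran from -0.63 to -0.36 with 1 array left out, and the photosystem I median was -0.89 against the controls with the note. In amiR-NGA the cytochrome b6f median was -0.55 with a filter at 6. In the quadruple mutant, leaving out the arrays of high actin difference gave -0.45 for NDH and -0.13 for ribosomal protein genes, adding probe sets of several genes gave -0.08 for the latter, and the controls without the note gave 0.26 for RNA polymerase. With 1 array left out, its medians ran from -0.28 to -0.08 over all members, from -0.40 to -0.06 for NDH and from -0.15 to 0.13 for ribosomal protein genes. Between the genotypes the NDH median was 0.35 with no filter, 0.15 with a filter at 6 and 0.22 once the arrays of high actin difference were left out, where the ribosomal median was -0.09. With 1 array left out these medians ran from 0.06 to 0.28 over all members, 0.22 to 0.53 for NDH, -0.09 to 0.30 for ribosomal protein genes and 0.04 to 0.38 for RNA polymerase. For the long-days note the NDH median was 0.13 with a filter at 6, and the RNA polymerase median 0.16 without the arrays of high actin difference. Taking the dimmest probe set of a gene was not run, since no plastid gene had a second one.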
